A study of Mus musculus with 4 samples.

Results

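The cells described here were 1588 mesenchymal cells with Col2a1 and Sox9 transcripts from the thymic lobes of Tbx1neo2/neo2 carrier embryos, out of 31105 cells in 4 single-cell RNA libraries. They were selected by their own transcripts, counted as unique molecular identifiers (UMIs, 1 per captured RNA molecule). A cell had to hold at least 200 genes, at most 10% of UMIs on mitochondrial genes, at least 4 of the 8 mesenchymal genes Pdgfra, Pdgfrb, Twist1, Prrx1, Dcn, Lum, Postn and Fbn1, and no UMI of Epcam (epithelium), Ptprc (blood cells) or Cdh5 (endothelium). Of the 11364 cells in the Tbx1neo2/neo2 carrier library, 5205 met these conditions, and 1588 of them held at least 2 UMIs each of Col2a1 and Sox9 and are called Col2a1 Sox9 cells. They were compared with the 1228 cells of the same library that met the same conditions and held neither gene.

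The series profiled thymic lobes taken at E13 to 13.5 and dispersed with trypsin. The embryos came from intercrosses of Tbx1+/neo2 mice, in which the neo2 allele has a neomycin cassette within an intron of Tbx1, so that homozygous embryos keep Tbx1 at a reduced level. The groups were Tbx1+/+ (labelled WT) with carrier, Tbx1neo2/neo2 with carrier, Tbx1neo2/neo2 with minoxidil and Tbx1neo2/neo2 with prostaglandin E2 (PGE2). In all 4 groups the pregnant dams had been injected, with ETOH as the carrier or with the drug, so that no group was untreated. Each group had 1 library, so that there was no replicate, no test across embryos was possible, and every interval given here covers counting error only, at 95%. Lobes were pooled where the tissue was hypoplastic, and how many embryos went into each is not given. Tbx1+/+ carrier had 11908 cells and 292687940 UMIs, Tbx1neo2/neo2 carrier 11364 cells and 194023208 UMIs, minoxidil 3362 cells and 151740600 UMIs, and PGE2 4471 cells and 156363845 UMIs. The labelled tissue was present in each, since Foxn1, the defining factor of thymic epithelium, had a UMI in 70.8%, 77.4%, 77.1% and 64.0% of epithelial cells (at least 2 Epcam UMIs and at most 1 of the mesenchymal genes) in that order.

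Cartilage forms from mesenchyme that condenses and turns on Sox9, a transcription factor (TF) which, with its partners Sox5 and Sox6, activates the genes of the cartilage matrix. That matrix is a network of type II, IX and XI collagen fibrils filled with aggrecan, a large proteoglycan coded by Acan, and cells that will not become cartilage keep a matrix of type I and III collagen. In the embryonic chest and neck such condensations give rise to the tracheal rings, the larynx, the sternum and the ribs, and the thymus itself is not a cartilage-forming organ.

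The upstream sequences of 3 cartilage genes are printed to show what lies before genes that were higher together in these cells. In mm10 Col2a1 lies on chromosome 15 at 97975602 to 98004695 on the minus strand, Sox9 on chromosome 11 at 112782224 to 112787760 on the plus strand, and Acan on chromosome 7 at 79053483 to 79115099 on the plus strand. Of 22 cartilage genes looked up in the RefSeq promoter table (build GRCm38.p6), 17 were listed, with 24 windows because a gene can have several starts. Each window below is the 250 bases before a RefSeq start, written 5′ to 3′ on the strand of the gene, and the capitals mark motifs that were searched on both strands. The first was the GC box, spelled GGGCGG. The second was the TATA box, spelled TATAAA. The last was the core shared by many sites of SOX proteins, spelled ACAAT.
Acan, chr7:79052976-79053225, plus strand: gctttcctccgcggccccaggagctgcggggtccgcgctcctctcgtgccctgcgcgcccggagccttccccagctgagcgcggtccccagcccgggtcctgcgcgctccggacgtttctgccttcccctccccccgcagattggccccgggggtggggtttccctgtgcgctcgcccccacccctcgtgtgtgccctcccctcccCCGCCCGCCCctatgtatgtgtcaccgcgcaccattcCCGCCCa
Chad, chr11:94564797-94565046, plus strand: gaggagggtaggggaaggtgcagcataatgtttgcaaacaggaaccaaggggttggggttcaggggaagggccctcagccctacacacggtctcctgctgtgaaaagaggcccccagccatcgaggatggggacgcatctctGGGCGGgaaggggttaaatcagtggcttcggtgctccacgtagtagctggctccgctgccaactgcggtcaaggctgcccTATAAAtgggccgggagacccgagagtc
Sox5, chr6:143947107-143947356, minus strand: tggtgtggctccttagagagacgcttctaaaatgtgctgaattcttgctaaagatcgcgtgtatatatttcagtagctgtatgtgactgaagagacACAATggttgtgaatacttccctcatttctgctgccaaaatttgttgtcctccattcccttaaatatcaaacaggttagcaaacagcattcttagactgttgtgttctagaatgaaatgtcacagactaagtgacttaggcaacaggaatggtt
The Acan window had 74.4% G and C and 3 GC boxes, the first pair sharing bases, the Chad window 1 GC box and a TATA box, and the Sox5 window, at 39.6% G and C, 1 SOX core. Of the 24 cartilage windows 6 held the SOX core, against 27.7% of 32851 windows of all genes. The GC box was present in 45.8% of the cartilage windows against 32.7% of all, and the TATA box in 16.7% against 12.4%. A match is a description of these letters and not of a bound site.

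The Tbx1neo2/neo2 carrier library stood apart from the other 3 in how many mesenchymal cells passed and in how many of them carried Col2a1 with Sox9. The gate left 2422 cells of Tbx1+/+ carrier, 863 of Tbx1neo2/neo2 minoxidil and 768 of Tbx1neo2/neo2 PGE2, against 5205 of Tbx1neo2/neo2 carrier. Col2a1 Sox9 cells made up 0 of 2422 cells in Tbx1+/+ carrier (a count of 3 would be 0.124%), 1588 of 5205 or 30.5% in Tbx1neo2/neo2 carrier (exact binomial interval 29.3 to 31.8%), 1 of 863 or 0.116% in Tbx1neo2/neo2 minoxidil (0.00293 to 0.644%), and 0 of 768 in Tbx1neo2/neo2 PGE2 (a count of 3 would be 0.391%). Nearly all such cells within the gate therefore came from 1 library, and its median of 13522 UMIs per gated cell was the lowest of the 4 (16125, 29567 and 25096 in Tbx1+/+ carrier, minoxidil and PGE2). With every gated cell thinned to 5000 UMIs, which left out 58 cells of Tbx1neo2/neo2 carrier, the share there was 984 of 5147 or 19.1%, and 0 of 2398, 0 of 853 and 0 of 754 cells in the other 3. Genotype, drug, embryo, dissection and library cannot be told apart with 1 library each.

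Sox9 itself was found in mesenchymal cells of all 4 libraries. Cells with at least 2 Sox9 UMIs and no Col2a1 made up 12.4% of gated cells in Tbx1+/+ carrier, 26.2% in Tbx1neo2/neo2 carrier, 26.3% in minoxidil and 18.6% in PGE2. Cells with neither gene made up 68.5%, 23.6%, 54.5% and 64.3% in the same order. The cells with neither gene thus made up a smaller share in Tbx1neo2/neo2 carrier than in the other 3 libraries, and the depth of the cells differed as well.

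**Figure D1:**
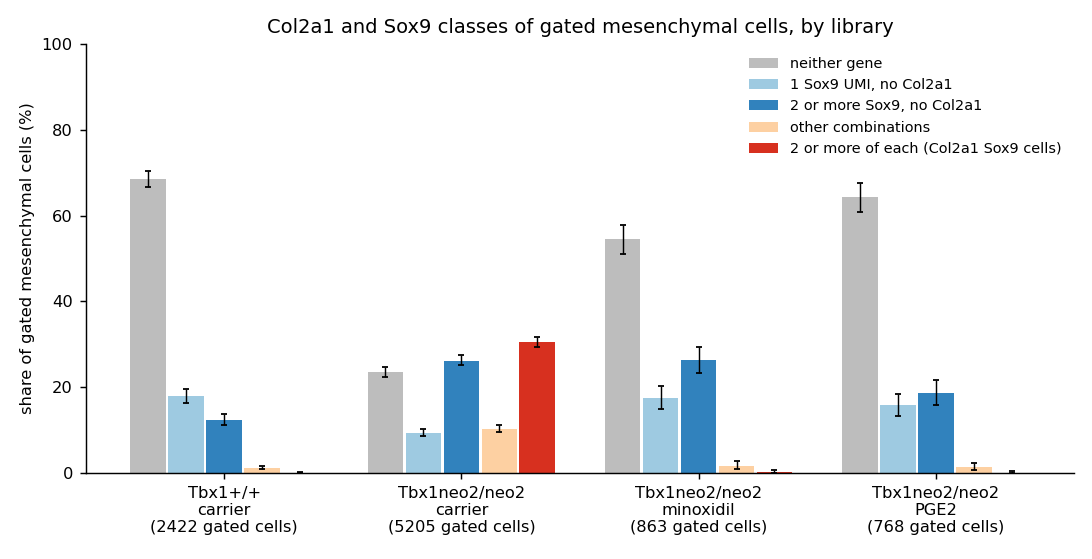
Share of gated mesenchymal cells (%) in each of 5 classes of Col2a1 and Sox9 UMIs, by library; bars are shares and error bars exact 95% binomial intervals, which cover counting error only. Col2a1 Sox9 cells (red) reached 30.5% in the Tbx1neo2/neo2 carrier library and at most 0.116% in the other 3.

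Among the Col2a1 Sox9 cells the median was 7 UMIs of Col2a1 (2 to 60) and 11 of Sox9 (2 to 70). The median cell held 12306 UMIs (4007 to 99088), against 14130.0 in cells with neither gene, and the mitochondrial share was 5.59% against 5.52%. Just outside the threshold, 325 gated cells had at least 2 Sox9 UMIs and 1 of Col2a1, and just inside it 200 had 2 of Col2a1. Col9a3 was at 277 UMIs per 1000000 UMIs of the pool (CPM) in the former and 463 CPM in the latter. These are levels of pools, in which cells of unlike levels can be mixed. Whether the threshold cut through a range or lay at a gap between cells was not tested. The Col2a1 Sox9 cells shared 4, 1 and 2 cell barcodes with Tbx1+/+ carrier, minoxidil and PGE2, and whole libraries shared 4 to 35.

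Col2a1 and Sox9 chose these cells, so their levels, 681 and 913 CPM against 0 UMIs in cells with neither gene, are not findings. Every other ratio below comes from the same contrast of cells and is likewise a description, with no test. UMIs were summed over each pool of cells and divided by the total of the pool. Of 13911 genes with at least 20 UMIs in both pools together, 880 (6.33%) were at least 2-fold higher in Col2a1 Sox9 cells and 1121 (8.06%) at least 2-fold lower, and the median log2 ratio was 0.04. The text calls a gene higher or lower only past 2-fold. Lists of genes are read against those shares.

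The other collagens of cartilage fibrils were all higher in Col2a1 Sox9 cells: 6 of 6 measured besides Col2a1, with a median log2 ratio of 4.20. Col9a1, Col9a2 and Col9a3 code for the chains of type IX collagen, which coats the fibril. Col9a3 stood at 774 CPM against 5.47 (log2 ratio 7.15, interval 6.86 to 7.44), Col9a1 at 379 against 8.31 (5.51, 5.28 to 5.75) and Col9a2 at 362 against 27.9 (3.69, 3.57 to 3.83). Col11a1 and Col11a2, whose chains form the core of the fibril with type II collagen, were at 448 against 98.6 CPM (2.18) and 20.1 against 0.765 CPM (4.71). Col27a1, a fibrillar collagen of growth cartilage, was at 113 against 53.7 CPM (1.07), and at 0.98 among male-scored cells alone (defined below), where it no longer passed 2-fold. The largest ratio was thus that of a type IX chain, and Col11a1 and Col27a1 had a sizeable level in cells with neither gene.

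Of 27 listed genes for proteoglycans and other proteins of cartilage matrix, 22 were measured, 15 were higher and 3 lower. Their median log2 ratio was 4.26, or 3.18 without cycling cells. Acan was at 98.0 CPM against 0.219, which rests on 4 UMIs in cells with neither gene (8.81, interval 7.45 to 10.69). Matn4, a matrilin that links matrix fibrils, was at 462 against 10 CPM (5.53). Cnmd, for chondromodulin, which keeps vessels out of cartilage, was at 119 against 1.15 CPM (6.69), and Mia, a secreted protein of chondrocytes, at 119.5 against 2.02 CPM (5.89). These 4 genes separated the pools by ratios far beyond 2-fold.

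Cartilage products of lower level were also concentrated in the Col2a1 Sox9 cells. Susd5 stood at 33.9 against 0.492 CPM (6.11), Snorc, a transmembrane proteoglycan of chondrocytes, at 14.2 against 0.273 (5.70), Scrg1 at 12.7 against 0.437 (4.86), and Prelp, a small leucine-rich proteoglycan, at 10.2 against 0.765 (3.73). Cytl1 had 11.8 CPM against 0 UMIs, at least 72.2-fold higher taking 3 counts over the pool as the floor. Comp, Chad and Ucma had 1 UMI each in cells with neither gene, so their log2 ratios of 5.99 (3.47 to 11.31), 7.07 (4.58 to 12.39) and 4.78 (2.21 to 10.13) are wide. Chadl (1.81), Hapln1, for the link protein that ties aggrecan to hyaluronan (1.70), and Crtac1 (1.56) were higher by less.

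Not every gene of the list followed. Vcan, for versican, the proteoglycan of loose mesenchyme, was at 397 against 312 CPM (0.35) and Mgp, an inhibitor of calcification, at 152 against 167 CPM (-0.14), while Fmod (0.66) and Cilp2 (0.37) also stayed within 2-fold. Matn2, a matrilin of many connective tissues, was lower at 6.32 against 25.1 CPM (-1.99), as were Epyc (-1.92) and Cilp (-1.89), which had 70 and 92 UMIs in all. Matn1 (13 against 0 UMIs), Matn3 (19 against 0), Hapln3 (9 against 3), Loxl4 (1 against 12) and Vit (0 against 1) were below the limit on counts.

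**Figure D2:**
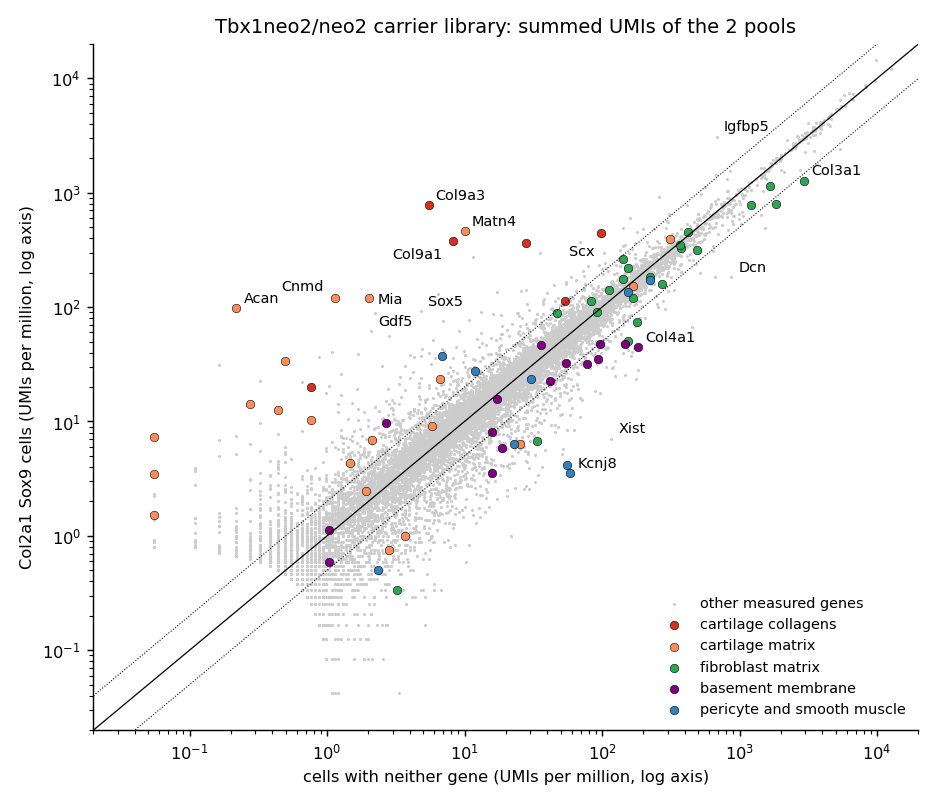
Level of each measured gene in Col2a1 Sox9 cells (vertical axis) against cells with neither gene (horizontal axis) of the Tbx1neo2/neo2 carrier library, in CPM on log axes; each point is 1 gene, the solid line marks equal levels and the dotted lines 2-fold. Col9a3 (774 against 5.47) and Acan (98.0 against 0.219) lie far above the upper line, and Kcnj8 (3.52 against 58.8) far below the lower one.

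The cartilage genes were found together in the same cells, and the other markers of the label, Col9a1, Col9a3 and Matn4, were each present in most of them. After thinning to 5000 UMIs, the median Col2a1 Sox9 cell held a UMI of 6 of 13 cartilage genes and the median cell with neither gene 1 of 13. At least 3 of the 13 were found in 93.7% of Col2a1 Sox9 cells, in 22.5% of cells with at least 2 Sox9 and no Col2a1, and in 4.78% of cells with neither gene. In the same 2 comparison classes of the other libraries that share was 1.40 to 5.73%. By gene, 87.8% of thinned Col2a1 Sox9 cells had a UMI of Col9a3, 83.4% of Matn4, 70.0% of Col9a1, 28.0% of Acan, 35% of Sox5 and 33.4% of Sox6, against 2.35%, 4.45%, 3.44%, 0%, 1.85% and 1.09% of cells with neither gene.

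The same genes were counted in thinned cells of other types, which free RNA in the droplets can reach. In the Tbx1neo2/neo2 carrier library 131 endothelial cells (at least 2 Cdh5 UMIs) held Col9a3 in 1.53%, which is 2 cells, and Col9a1, Matn4 and Acan in 0. The 550 blood cells (at least 2 Ptprc UMIs, median 27116 UMIs before thinning) held Col9a1 in 1.09%, Matn4 in 0.545% and Acan in 0 of 550, where a count of 3 would be 0.545%. Epithelial cells held Col9a1 in 3.79%, Col9a3 in 2.39%, Matn4 in 0.499% and Acan in 0.199%, and the 2 genes of the selection, Sox9 and Col2a1, in 13.5% and 6.98%. Col9a3 was found in 7.64% of blood cells, and in 10.2%, 10.5% and 4.16% of those of Tbx1+/+ carrier, minoxidil and PGE2. In the epithelial cells of those libraries it was found in 2.14%, 2.19% and 2.53%. Those libraries held 0 or 1 Col2a1 Sox9 cells within the gate. Outside it 169, 114 and 84 of their kept cells held at least 2 UMIs each of Col2a1 and Sox9. The 2.35% of cells with neither gene that held Col9a3 was not above the epithelial and blood shares of that library and is not read as expression. The shares of Col2a1 Sox9 cells with Col9a1, Col9a3, Matn4 and Acan were above those of all 3 other cell types.

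Doublets were not removed. Scrublet marked 0 of 11364 barcodes in the Tbx1neo2/neo2 carrier library and so gave no usable call there. Of the Col2a1 Sox9 cells, 69 (4.35%) lay among the 5% of barcodes with the highest doublet scores, against 0.896% of cells with neither gene, and the share of Col2a1 Sox9 cells without those barcodes was 29.9%. Without those barcodes 910 genes were higher and 1185 lower, the median log2 ratios were 4.26 for the cartilage collagens and 4.31 for the cartilage matrix, and 196 of 197 listed genes past 2-fold were still so in the same direction (the ratios with all cells follow below).

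The SOX trio was present as a whole. Sox5 was at 92.3 against 4.81 CPM (log2 ratio 4.26) and Sox6 at 88.7 against 2.24 CPM (5.31). Of 7 other measured Sox genes, Sox11, a factor of immature mesenchyme and neurons, was higher at 607 against 159 CPM (1.94), and Sox10 (-3.34) and Sox13 (-2.11) lower. Sox4 was at 1116 against 559 CPM (1.0), at the edge of 2-fold and at 0.93 among male-scored cells.

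Other regulators tied to cartilage split in direction, with 6 of 15 measured genes higher, 5 lower and a median of 0.09. Wwp2, a ubiquitin ligase gene under Sox9 control that also hosts a cartilage microRNA, was at 273 against 11.6 CPM (4.56). Runx1, present in early condensations, was at 299 against 35.6 CPM (3.07), Trps1, which restrains chondrocyte maturation, at 372 against 68.8 (2.44), and Foxc1, a forkhead factor of skeletal mesenchyme, at 138 against 25.7 (2.43). Nfatc1 (1.93) and Pax1 (1.81, 26.7 against 7.60 CPM) completed the higher group. Nr2f1 (-1.81), Barx1 (-1.68), Runx3 (-1.30, 26 UMIs in all), Nr2f2 (-1.26) and Zeb1 (-1.15) were lower. Nkx3-2, a factor of axial cartilage, had 6 UMIs against 1 and Pax9 was at 2.13 against 2.08 CPM.

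Enzymes that build the chains of cartilage proteoglycans were higher or unmoved, with 6 of 18 measured genes higher, 0 lower and a median of 0.49. Csgalnact1, which starts chondroitin chains, was at 37.0 against 4.81 CPM (2.94), Papss2, which makes the sulfate donor, at 39.6 against 5.47 (2.86), and Xylt1, which attaches the first sugar, at 27.3 against 4.21 (2.70). Chsy3, Chst11 and Ugdh were higher by 1.61, 1.19 and 1.16 on the log2 scale. Papss1, the most abundant of the list at 140.4 against 107 CPM, stayed within 2-fold (0.40), as did the hyaluronan synthase Has2 (-0.28).

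Of 21 genes for collagen processing and cross-linking, 6 were higher and 1 lower (median 0.31). Pcolce2, an enhancer of procollagen cleavage, was at 14.2 against 1.20 CPM (3.56) while its relative Pcolce was lower at 32.1 against 92.2 (-1.52). The prolyl hydroxylase subunits P4ha3 (1.79) and P4ha2 (1.43), the procollagen protease Adamts3 (1.57), the lysyl hydroxylase Plod1 (1.35) and the lysyl oxidase Loxl3 (1.07) were the others past 2-fold. Serpinh1, the collagen chaperone and most abundant gene of the list, was at 751 against 902 CPM (-0.26), and Lox at 105 against 108 CPM (-0.03).

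Signals of the BMP and TGF-beta family, which drive condensation and joint formation, gave 11 higher and 3 lower genes of 34 (median 0.44). Among ligands, Gdf5, a marker of forming joints, was at 61.4 against 2.08 CPM (4.89), Bmp5 at 62.3 against 9.13 (2.77), Bmp2 at 59.8 against 13.1 (2.19) and Tgfb2 at 484 against 197 (1.30). Among antagonists, Nog was at 26.1 against 1.26 CPM (4.38), and Chrdl2 (2.65), Chrdl1 (2.38) and Grem1 (1.19, or 0.82 among male-scored cells) were also higher. The receptor gene Bmpr1b (1.47), the signal transducer Smad9 (3.64, 8.20 against 0.656 CPM) and the target Id2 (1.23, 319 against 135 CPM) completed the higher group. Tgfbr3 (-2.01), Bmp3 (-1.63) and Gdf10 (-1.15, or -0.62 among male-scored cells) were lower. Some ligands and some antagonists were thus higher in these cells, while the ligands Bmp3 and Gdf10 were lower. The ligands Bmp4 (-0.90) and Bmp7 (-0.54) and the antagonist Chrd (-0.50) lay within 2-fold. So did the targets Id1 (0.47) and Id3 (0.91, or 1.12 among male-scored cells).

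The FGF list split, with 4 higher and 5 lower of 16 (median -0.46). Fgfr3, which restrains growth in cartilage, was at 22.0 against 0.656 CPM (5.07), Fgfr2 at 76.1 against 7.0 (3.44), Fgfrl1 at 85.5 against 18.5 (2.21) and Fgfr4 at 4.90 against 1.37 (1.84). The inhibitors Spry4 (-2.22), Spry1 (-1.86) and Spry2 (-1.46) were lower, as were the ligands Fgf7 (-1.86) and Fgf18 (-1.82). Fgfr1 was at 142 against 90.8 CPM (0.65), and Spred1 (0.06) and Dusp6 (-0.82) were also among those within 2-fold.

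The WNT list gave 7 higher and 10 lower of 27 genes (median 0.01). Fzd9, a receptor, was at 31.2 against 0.164 CPM, which rests on 3 UMIs in cells with neither gene (7.57, 6.02 to 9.85). Frzb, a secreted WNT inhibitor of cartilage, was at 55.5 against 2.84 CPM (4.29), Wif1 at 41.6 against 9.89 (2.07), Dkk3 at 22.5 against 6.72 (1.74) and Sfrp2 at 651 against 305 (1.10). Lef1 (1.33) and Notum (1.75, or 0.86 among male-scored cells) were the others. The ligands Wnt9a, Wnt2, Wnt11 and Wnt4, the inhibitors Sfrp4, Dkk2, Sfrp1 and Sfrp5, and Tcf7 and Axin2 were lower, by -2.15 to -1.22, with Sfrp5 at 0.02 once cycling cells were left out. Ptch1, the hedgehog receptor, was at 11.5 against 5.57 CPM (1.04), the ligand genes Shh and Ihh had 0 and 5 UMIs in Col2a1 Sox9 cells, and Gas1 was lower (-1.01, or -0.98 among male-scored cells) among 10 measured hedgehog genes with a median of 0.33.

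Several products of hypertrophic cartilage and bone had few or no UMIs. Col10a1 had 1 UMI in each pool, Mmp13 and Ibsp 0 in both, and Ihh 5 against 1. Of 7 measured genes of hypertrophic cartilage 1 was higher, Mef2c, at 157 against 44.4 CPM (1.82), and 1 lower, Spp1 (-1.19), which had 22 UMIs in all and stood at 0.69 among male-scored cells. In the osteoblast list 4 of 8 measured genes were higher (median 0.76), among them the TF genes Runx2 at 41.3 against 7.10 CPM (2.54), Dlx5 (2.42) and Sp7 (2.29, 2.68 against 0.547 CPM), while Phex (-2.31) and Col1a1 (-1.21) were lower and Bglap had 2 UMIs in each pool. In the tendon list Mkx (2.12) and Scx (1.21), TFs of tendon and its attachment to cartilage, were higher, with Scx at 244 against 105 CPM, and Thbs4 (-2.65) and Kera (-1.92) lower, of 8 genes with a median of -0.03. Tnmd, a product of mature tendon, was at 12.9 against 19.1 CPM (-0.56).

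Of 22 genes for the matrix of ordinary fibroblasts 0 were higher, 6 were lower and the other 16 lay within 2-fold (median -0.38), among the latter Eln (0.92), Bgn (0.86), Tnc (0.45) and Fbln2 (0.34). Col3a1 was at 1269.8 against 2924 CPM (-1.20) and Col1a1 at 797 against 1844 (-1.21), so that type I and III collagen remained abundant in the Col2a1 Sox9 cells. Tnxb (-3.27), Mfap5 (-2.32), Fbln1 (-1.61) and Col6a3 (-1.29) were the others lower, and Col1a2 was at 1152 against 1679 CPM (-0.54). Basement membrane genes had a median of -0.97, with 7 of 15 lower, among them Col4a1 at 44.4 against 184 CPM (-2.05), Nid1 at 47.6 against 146 (-1.61), Col4a2 (-1.39), Col18a1 (-1.68), Lama2 (-2.17), Lamb1 (-1.03) and Nid2 (-1.29), and Col15a1 higher (1.85). The gate genes Dcn (183 against 871 CPM, -2.25) and Pdgfrb (-1.19, or -0.87 among male-scored cells) were lower too, but the gate required them in part.

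The list of pericyte and smooth muscle genes split, with 4 lower and 2 higher of 9, and summed to 409 against 565 CPM. Kcnj8 was at 3.52 against 58.8 CPM (-4.06, or -3.33 among male-scored cells) and Abcc9 at 4.14 against 55.9 (-3.75, or -3.08), and Myh11 (-2.23) and Rgs5 (-1.83) were lower, while the contractile gene Cnn1 (2.44) and the pericyte gene Cspg4 (1.21) were higher, Notch3 lay at -0.36, and the median was -0.38. In cells of this library with at least 2 Sox9 UMIs and no Col2a1, Cnn1 was at 39.8 CPM and Kcnj8 at 9.66 CPM. With 20 or more Col2a1 UMIs Cnn1 was at 38.6 CPM. Among cells with Sox9, Cnn1 was thus alike with and without Col2a1, and Kcnj8 was below the cells with neither gene in both. Factors by which mesenchyme supports the thymus and its vessels had a median of -0.83, with 7 of 19 lower and 3 higher. Cxcl12, which attracts progenitor cells, was at 25.5 against 148 CPM (-2.54), Aldh1a2, which makes retinoic acid, at 8.45 against 62.3 (-2.88, or 8.99 against 32.6 CPM and -1.86 among male-scored cells), and Kitl at 8.41 against 24.4 (-1.53), with Vegfd (-3.03), Fgf7 (-1.86), Angpt1 (-1.42) and Il7 (-1.09) also lower. Foxf2, a forkhead factor of mesenchyme, was at 22.5 against 0.328 CPM, which rests on 6 UMIs (6.10, 4.97 to 7.55), and Aldh1a1 (2.13) and Angptl2 (1.35) were higher. Igf1 and Igf2, growth factors, were at 258 against 460.0 CPM (-0.83) and 767 against 625 CPM (0.29).

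**Figure D3:**
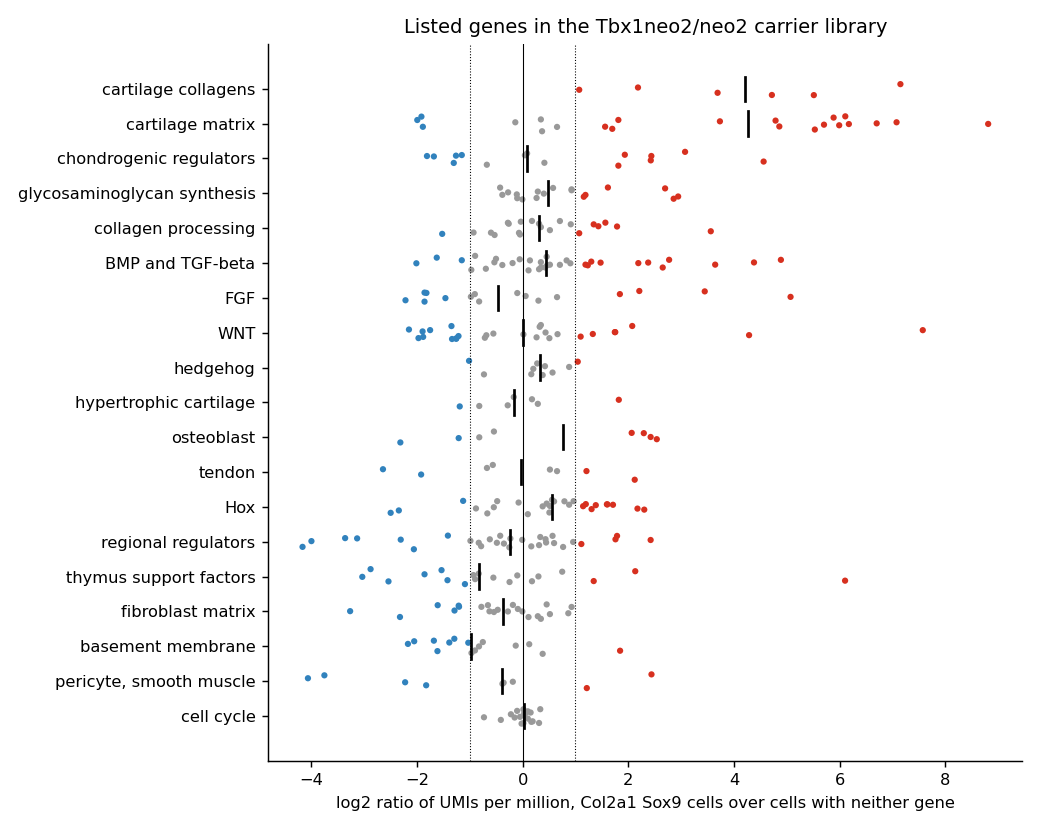
Log2 ratio of Col2a1 Sox9 cells over cells with neither gene (horizontal axis) for the measured genes of 19 lists in the Tbx1neo2/neo2 carrier library; each point is 1 gene (red at least 2-fold higher, blue at least 2-fold lower, genes at 0 in 1 pool at their bound), thick bars are list medians and dotted lines 2-fold. The cartilage collagens (median 4.20, Col2a1 left out) and cartilage matrix (4.26) lie to the right, basement membrane (-0.97) to the left, and the cell cycle list (0.02) around 0.

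TFs that mark body regions also differed within the library. Tbx5, a factor of the forelimb, heart and lung field, was at 134 against 39.5 CPM (1.76), and Dlx5, Msx2 (1.78) and Foxp2 (1.11) were higher, of 30 measured genes with a median of -0.24. In cells with at least 2 Sox9 UMIs and no Col2a1, Tbx5 was at 91.0 CPM, so its level was in part shared by those cells. Dlx2 (-4.17, or -3.35 among male-scored cells), Dlx1 (-4.0, or -2.49), Tcf21 (-3.36, or -2.41), Tbx15 (-3.14), Foxd1 (-2.31), Tbx18 (-2.06) and Msx1 (-1.41) were lower. Tbx1 itself was at 1.97 against 2.51 CPM (-0.35), with 47 and 46 UMIs. Hox genes, whose paralog groups mark position along the body axis, gave 9 higher and 3 lower of 27 (median 0.56), with Hoxa7 at 165 against 54.7 CPM (1.60), Hoxa5 at 113 against 37.1 (1.60) and Hoxa6 (2.30), Hoxb8 (2.17), Hoxb6 (1.71), Hoxa9 (1.38), Hoxb9 (1.30, or 0.83 among male-scored cells), Hoxa2 (1.19) and Hoxa3 (1.14) higher and Hoxd3 (-2.50), Hoxd9 (-2.35) and Hoxd4 (-1.13) lower.

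Hox genes of groups 6 to 10 were at higher levels in the pooled mesenchyme of this library than in that of the others, with or without Col2a1. In its female-scored gated cells (sex scoring is defined below) they summed to 4.12 CPM (2.13 to 7.19), far below the 328 CPM of its male-scored ones, against 0.80, 0.576 and 4.66 CPM over the gated cells of Tbx1+/+ carrier, minoxidil and PGE2. Their 15 genes summed to 436 CPM in Col2a1 Sox9 cells and 205 CPM in cells with neither gene of Tbx1neo2/neo2 carrier, against 0.819 CPM in cells with neither gene of Tbx1+/+ carrier, 0.678 in minoxidil and 5.15 in PGE2. After thinning, 49.7% of Col2a1 Sox9 cells and 37.1% of cells with neither gene held such a UMI, against 0.306%, 0% and 1.46% of cells with neither gene in the other 3 libraries. The 15 genes of groups 1 to 5 were at 491 CPM in Col2a1 Sox9 cells and at 342, 304, 300.2 and 249 CPM in cells with neither gene of Tbx1neo2/neo2 carrier, Tbx1+/+ carrier, minoxidil and PGE2. High levels of groups 6 to 10 were thus found also in cells without Col2a1, of which the male-scored stood at 249 CPM.

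Outside the lists, the 10 largest ratios (levels of 50 CPM or more in 1 pool) belonged to 1500015O10Rik at 131 against 6.39 CPM (4.36), Ndrg2 (3.12), Enpp2, for the enzyme that makes lysophosphatidic acid, at 136 against 17.3 (2.97), the carboxypeptidase gene Cpm (2.84), Mecom (2.79), Hs3st3b1 (2.44), Crispld1 (2.33), Igfbp5, an IGF-binding protein, at 3089.8 against 681 (2.18), Tox3 (2.10) and Btbd3 (1.90). Among the 10 smallest were those of Ndufa4l2 at 5.15 against 51.2 CPM (-3.31), Ifitm1 (-2.92), Akap12 at 67.5 against 453 (-2.75), Osr2, a TF of pharyngeal and joint mesenchyme (-2.72), Nrp1 at 28.1 against 182 (-2.69), Gap43 (-2.43), Crabp1, a retinoic acid binding protein, at 25.1 against 124 (-2.31), Rnd3 (-2.27) and the Notch target Hes1 (-2.22).

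Cells with at least 2 Sox9 UMIs were then ordered by their Col2a1 UMIs, from 1366 cells with 0 to 212 cells with 20 or more. Acan went from 0.638 CPM in the first over 9.53, 30.8, 37.4, 72.9 and 128 to 197 CPM at 1, 2, 3 to 4, 5 to 9, 10 to 19 and 20 or more. Col9a3 went from 61.4 over 277, 463, 579, 734 and 921 to 1011 CPM. Gdf5 went from 11.2 over 27.6 and 44.3 to 65.1 CPM at 3 to 4 UMIs and stayed between 59.6 and 65.8 beyond, and Scx was highest at 2 UMIs, with 165, 245, 308, 287, 280.1, 209 and 158 CPM. Acan and Col9a3 thus followed Col2a1 to its top, while Gdf5 levelled off over these steps and Scx was lower again.

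Dcn and Col1a1, genes of loose mesenchyme, were lower where Col2a1 was counted. Dcn was at 756, 497, 229, 177, 193, 171 and 164 CPM over the same steps and Col1a1 at 2045, 1436, 899, 708, 902, 771 and 715 CPM. Most of the difference over these steps lay between 0 and 2 Col2a1 UMIs. Hox genes of groups 6 to 10 went from 283 over 349.8 to 455 CPM at 2 UMIs and stood at 421 CPM at 20 or more, and the median Sox9 count went from 4 to 17 UMIs per cell. Since deeper cells hold more UMIs of any gene, the order was repeated with Col2a1 per 10000 UMIs within the Col2a1 Sox9 cells, in 4 sets of 397 cells. These sets still differed in depth, with medians of 14924, 12202, 12307 and 10843 UMIs from the lowest to the highest. Their cell cycle genes summed to 2130.2, 1603, 1674 and 1374 CPM, and Hox groups 6 to 10 to 452, 444, 469 and 359.8 CPM. The part of these differences in the values below was not tested. From the lowest set to the highest, Acan was at 24.1, 63.4, 94.4 and 259 CPM, Col11a2 at 1.66, 8.11, 18.8 and 65.1, Gdf5 at 47.7, 55.1, 73.6 and 75 CPM, and Scx at 291, 262, 225 and 174 CPM. Dcn was at 293, 193, 131 and 68.7 CPM and Col1a1 at 1069, 875, 687 and 421 CPM, so that both were lower in each further set, while Gdf5 was higher up to the third set.

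**Figure D4:**
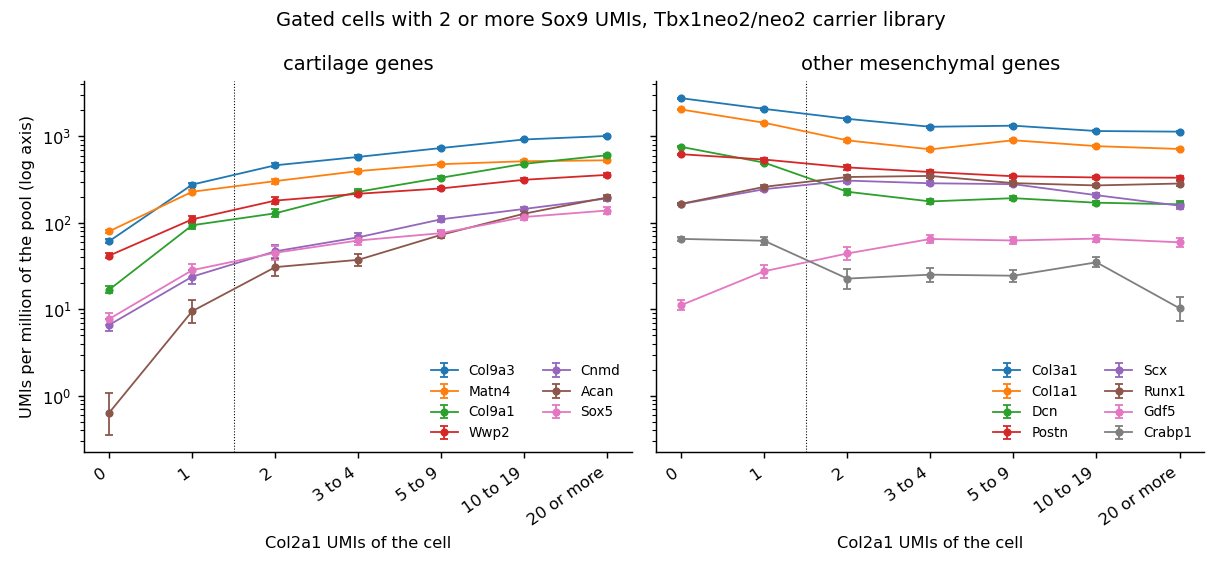
Level in CPM (log axis) of cartilage genes (left) and other mesenchymal genes (right) in gated Tbx1neo2/neo2 carrier cells with 2 or more Sox9 UMIs, by the Col2a1 UMIs of the cell; points are pools of 200 to 1366 cells, error bars exact 95% Poisson intervals (counting error only), and the dotted line marks the selection threshold. Acan goes from 0.638 to 197 CPM and Dcn from 756 to 164 CPM.

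Within the Col2a1 Sox9 cells, some pairs of genes were found together more often than others. Of 1585 thinned cells, 444 held Acan, and 95.5% of these also held Matn4, against 78.7% of cells without Acan. Acan was found in 5.0% of the 500 cells with Hoxa7 and in 38.6% of those without, and in 13.3% of the 361 cells with Gdf5 and 32.4% of those without. Tbx5 was found in 46.5% of cells with Pax1 and 46.4% of those without. Cells of 1 library are not replicates, and these shares are a description.

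The sex of a cell was scored as female from at least 2 UMIs of Xist, the RNA of the inactive X chromosome, with no Y-linked UMI, and as male from at least 2 UMIs of Ddx3y, Uty, Kdm5d and Eif2s3y with no Xist. All scored Col2a1 Sox9 cells but the 23 with both signals were male: 1073 male, 0 female and 492 with too few UMIs to score. Gated cells with neither gene in the same library held 692 male and 129 female cells, and its blood cells 281 and 178. Col2a1 Sox9 cells were 1073 of 3353 male-scored gated cells or 32.0% (30.4 to 33.6%) and 0 of 172 female-scored ones (a count of 3 would be 1.74%), and in Tbx1+/+ carrier 0 of 1090 male-scored and 0 of 589 female-scored. The minoxidil gate held 846 female-scored and 0 male-scored cells and the PGE2 gate 607 male-scored and 1 female-scored, so of the libraries with Tbx1neo2/neo2 embryos the carrier one was mixed, and the cells described here came with the male signal. Sex, embryo and the lobes dissected cannot be told apart here.

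Male-scored and female-scored cells of Tbx1neo2/neo2 carrier that held neither gene differed in the same regional genes. Hox groups 6 to 10 summed to 249 CPM in the male-scored and 2.90 CPM in the female-scored cells with neither gene, against 0.806 and 0.280 CPM in Tbx1+/+ carrier. Tbx5 was at 45.9 and 1.45 CPM, against 5.89 and 3.36, and Scx at 118 and 7.72 CPM, against 15.2 and 12.9. Kcnj8 was at 34.2 and 185 CPM, against 139 and 147, and Aldh1a2 at 32.6 and 201 CPM, against 161 and 122. For these 4 genes and the Hox sum the female-scored cells with neither gene lay nearer to Tbx1+/+ carrier than the male-scored cells did, and the Col2a1 Sox9 cells (Tbx5 133, Scx 239, Kcnj8 3.40 and Aldh1a2 8.99 CPM in the male-scored) lay beyond the latter. The pericyte and smooth muscle list that holds Kcnj8 did not follow as a whole. It summed to 621 CPM in the male-scored cells, against 459.6 in Tbx1+/+ carrier, and to 529.5 against 1223 CPM in the female-scored ones. Its median log2 ratios were 0.08 and -2.68.

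Over genes with at least 50 CPM in cells with neither gene of Tbx1neo2/neo2 carrier or Tbx1+/+ carrier, 190 of 3240 (5.86%) differed at least 2-fold between the libraries in male-scored cells (91 higher and 99 lower in Tbx1neo2/neo2 carrier) and 66 of 3125 (2.11%) in female-scored cells (7 higher and 59 lower). Immediate early genes were lower in Tbx1neo2/neo2 carrier in both, 11 of 13 in male-scored and 10 of 13 in female-scored cells, with sums of 2472 against 6190.2 CPM and 2773 against 6782 CPM, and the Col2a1 Sox9 cells stood at 2342 CPM. Within Tbx1+/+ carrier, male-scored and female-scored cells with neither gene differed at least 2-fold in 0.484% of genes at that level, and within Tbx1neo2/neo2 carrier in 7.78%. Restricted to male-scored cells, the contrast of Col2a1 Sox9 cells with cells of neither gene gave 744 higher and 992 lower genes, with medians of 4.0 for the cartilage collagens and 3.84 for the cartilage matrix. The cartilage medians were thus slightly smaller within 1 sex. Beside the genes whose male-scored values stand above, ratios of named genes moved by over 1.5 times for Susd5 (6.96 among male-scored cells), Scrg1 (4.10), Comp (5.04), Ucma (3.89), Ndufa4l2 (-2.60), Ifitm1 (-2.15) and Emcn (-1.85). Of the markers and stress genes below, Msln (0.18), Stmn2 (-1.55) and Egr2 (-1.04) did so too, beside others whose male-scored values are given there.

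**Figure D5:**
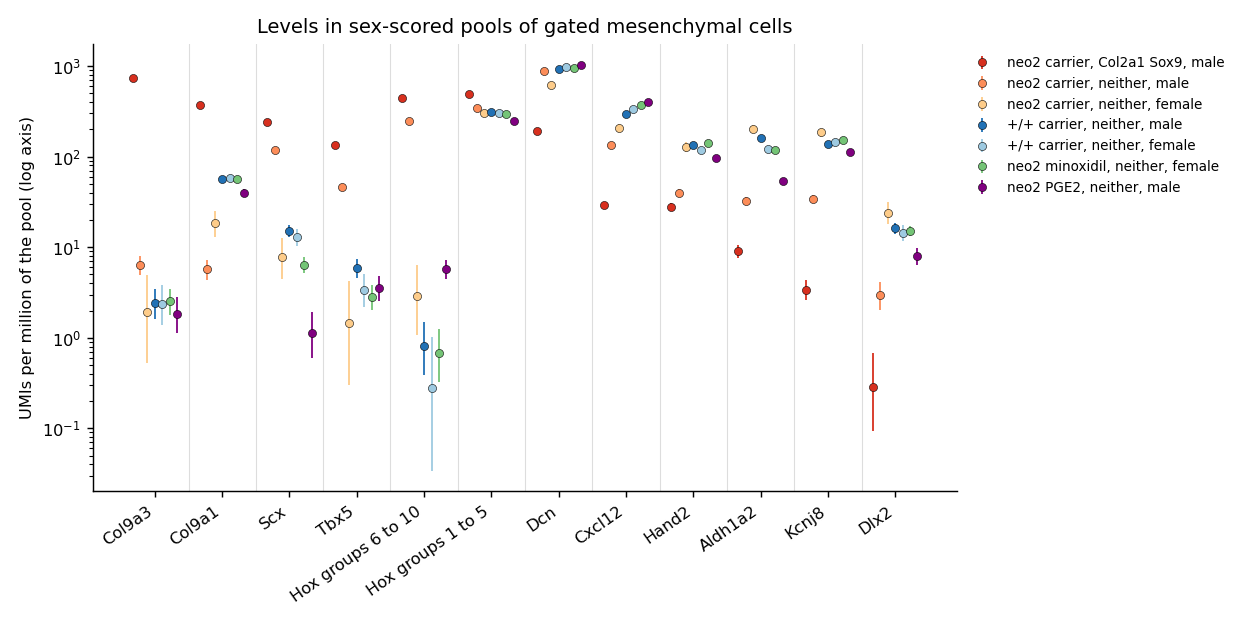
Level in CPM (log axis) of 10 genes and 2 Hox sums in pools of gated mesenchymal cells by library, class and scored sex; points are pools, vertical lines exact 95% Poisson intervals (counting error only). Hox groups 6 to 10 stand at 444 CPM in male-scored Col2a1 Sox9 cells, 249 in male-scored and 2.90 in female-scored cells with neither gene of Tbx1neo2/neo2 carrier, and at most 5.73 in the other libraries.

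Cells with at least 2 Sox9 UMIs and no Col2a1 also differed between the libraries. A count of 0 UMIs does not show that a cell lacked Col2a1 RNA. This class held 939 male-scored and 12 female-scored cells in Tbx1neo2/neo2 carrier, and 157 and 63 in Tbx1+/+ carrier. It held 0 and 226 in minoxidil and 111 and 0 in PGE2, and the levels below are not split by sex. In Tbx1neo2/neo2 carrier these cells held Col9a3 at 61.4 CPM, Matn4 at 79.9, Wwp2 at 41.8 and Runx1 at 166 CPM. In Tbx1+/+ carrier the same class held Col9a3 at 3.76, Matn4 at 5.81, Wwp2 at 11.1 and Runx1 at 32.3 CPM, in minoxidil 4.01, 7.62, 8.29 and 32.7 CPM, and in PGE2 2.03, 4.31, 6.34 and 26.4 CPM. These 4 transcripts were thus at higher levels in this class of Tbx1neo2/neo2 carrier, while in the other 3 libraries Col9a3 in this class was near its level in cells with neither gene (2.32, 2.51 and 1.57 CPM). Acan (0.638 CPM, 14 UMIs) and Col11a2 (0.683 CPM, against 0.765 in cells with neither gene) were near 0 in this class of Tbx1neo2/neo2 carrier. Col9a1 was at 16.9 CPM in that class of Tbx1neo2/neo2 carrier and 34.1, 53.5 and 16.7 CPM in Tbx1+/+ carrier, minoxidil and PGE2, and at 51.9, 57.1 and 36.8 CPM in their cells with neither gene against 8.31.

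Markers of other cell types, erythroid genes and the pericyte and smooth muscle genes above aside, summed to low levels in the Col2a1 Sox9 cells. Of 7 epithelial markers 3 were measured, with 0 past 2-fold and a sum of 25.9 against 33.5 CPM, led by Krt18, with Epcam at 0 by the gate. The 6 blood markers summed to 11.3 against 9.56 CPM (5 measured, 0 past 2-fold, led by Coro1a, Ptprc at 0 by the gate), and the 6 endothelial ones to 4.65 against 13.6 CPM (4 measured, 3 lower, led by Emcn, Cdh5 at 0 by the gate). The 7 erythroid genes summed to 3742 against 3286 CPM with 0 past 2-fold, led by Hbb-bs. Among male-scored cells 4 of them were past 2-fold, Hba-x (3.10), Hbb-y (2.32), Hba-a1 (1.30) and Hba-a2 (1.17), and the 6 hemoglobin genes summed to 4078 against 1990.0 CPM. Their part in the other values was not tested. Parathyroid markers were absent, with Pth, Gcm2 and Casr at 0 UMIs in both pools and Chga at 1 against 6.

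The 6 myogenic markers summed to 24.6 against 24.2 CPM (1 higher, Myog at 2.05, or -1.46 without cycling cells, and Des lower at -1.34). The 6 glial markers summed to 16.9 against 15.8 CPM, with Erbb3 higher (1.28, or 0.89 among male-scored cells) and Sox10 (-3.34) and Foxd3 (-3.50) lower. The 6 neuronal markers summed to 14.1 against 61.6 CPM, with Stmn2 lower (-2.37). The 5 mesothelial markers summed to 13.3 against 20.8 CPM, with Wt1 lower (-1.78) and Msln higher (2.20). Msln stood at 0.18 among male-scored cells and at -0.16 at 3 UMIs of Col2a1 and Sox9. Of 6 airway and thyroid markers 1 was measured, Foxj1 (1.28, or 0.69 among male-scored cells), and Nkx2-1, Foxe1 and Scgb1a1 had 0 UMIs in Col2a1 Sox9 cells. The part of these markers in the cartilage values was not tested.

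Cell cycle genes were alike in both pools, with 0 of 18 past 2-fold and a median of 0.02, Top2a standing at 282 against 225 CPM and Ube2c at 212 against 197 CPM. A UMI of 1 of 6 cycle genes was found in 43.7% of thinned Col2a1 Sox9 cells and 46.0% of cells with neither gene. Cdkn1c, an inhibitor that is abundant in both, was at 3319 against 3823 CPM (-0.20), and Cdkn1a was higher (1.20) but stood at -0.94 when 3 mesenchymal genes were required in place of 4. Of 17 immediate early genes 0 were higher and 3 lower, Egr2 (-1.74), Klf6 (-1.17) and Fosl2 (-1.12), with a median of -0.40, and of 11 heat shock and stress genes 1 was higher, Ddit4 (1.03, or 0.85 among male-scored cells). Hypoxia genes had a median of 0.80, with 3 of 12 higher, Car9 (2.29), Bnip3 at 88.2 against 24.5 CPM (1.85) and the glucose transporter gene Slc2a1 at 28.6 against 10.6 (1.43), and Adm lower (-2.31). Ldha, the most abundant of them, was at 570.5 against 295 CPM (0.95).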

How the data were processed

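The authors deposited raw UMI counts per gene and cell, without normalization, for 4 libraries of mouse thymic lobes (27998 features). Per the submitters' processing notes and the study's methods, the counts were made with Cell Ranger 5.0.1 on mm10 and analysed in Seurat. Whether intronic reads were counted is not given in the sources used here. Here, cells were gated as described, UMIs were summed over pools of cells, and levels were given as UMIs per 1000000 UMIs of the pool (CPM) with exact Poisson intervals. Shares had exact binomial (Clopper-Pearson) intervals, and ratios exact conditional binomial intervals, each at 95%. A gene was measured at 20 UMIs in both pools together and called past 2-fold, and a level of 0 was compared at 3 counts. Cells were not treated as replicates, and no test was made with 1 library per group. The 2-fold rule and the ratio intervals were checked on simulated pools of counts with known folds and no variation between cells. The gate, thinning, sex scoring, doublet scores and motif search were not checked in this way.

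The members and all gene lists were chosen with earlier results of these data known. Of 492 listed genes, 491 matched. The genes named were all members of the cartilage collagen, cartilage matrix and SOX trio lists, members of the other lists that were abundant or past 2-fold, and the 10 largest and 10 smallest ratios outside the lists among genes with at least 50 CPM in 1 pool. Some genes that this rule names are not reported here. Genes named for a value that misses these limits were chosen after their values were seen. Cells were thinned to 5000 UMIs for shares across depths. Doublets were scored with Scrublet and not removed. Sex scoring and the doublet score limit were added after the data had been seen. Upstream sequences came from RefSeq (GRCm38.p6) and gene positions from GENCODE. Python 3.11.15, numpy 2.4.6, scipy 1.17.1, pandas 2.3.3, scanpy 1.11.5 (Scrublet), matplotlib 3.10.9, R 4.3.3 and edgeR 4.0.16 (TMM factors only) were used.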

Additional observations from a re-analysis of the deposited data

Results flagged for a closer look

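Cells outside the gate also carried both genes. At least 2 UMIs each of Col2a1 and Sox9 were found in 13.3% of kept cells outside the gate in Tbx1neo2/neo2 carrier, against 1.87% in Tbx1+/+ carrier, and in 37.5% (304 of 810) of cells that had 4 mesenchymal genes together with a UMI of Epcam, Ptprc or Cdh5, against 4.68% in Tbx1+/+ carrier, 8.81% (17 of 193) in minoxidil and 2.42% (3 of 124) in PGE2. In minoxidil 4.88% of kept cells outside the gate carried both, and in PGE2 2.48%. Epithelial cells (at least 2 Epcam UMIs, at most 1 mesenchymal gene) carried both in 7.12% of minoxidil and 4.35% of PGE2 cells, against 3.80% (39 of 1025) in Tbx1neo2/neo2 carrier and 2.30% in Tbx1+/+ carrier. After thinning to 5000 UMIs these epithelial counts were 0 of 912, 0 of 1583, 0 of 1003 and 1 of 3505 cells.

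Some lists differed in sign between male-scored and female-scored cells with neither gene, in the ratio of Tbx1neo2/neo2 carrier to Tbx1+/+ carrier; the difference was not tested. The median log2 ratio of fibroblast matrix genes was 0.54 in male-scored and -0.66 in female-scored cells, that of regional TFs -0.56 and 0.05, and that of cell cycle genes -0.43 and 0.28, with 0 of 16 and 0 of 14 cell cycle genes past 2-fold. Lists with few measured genes at this level also differed in sign, with 1.03 (3 genes) and -1.24 (2 genes) for the cartilage collagens, -0.61 and 0.38 (6 genes each) for chondrogenic regulators, 0.54 and -0.76 (2 genes each) for the osteoblast list, 0.76 and -0.18 (4 genes each) for cycle inhibitors and D cyclins, and 0.08 (4 genes) and -2.68 (5 genes) for pericyte and smooth muscle genes. The erythroid, FGF, WNT, hedgehog, hypertrophic and hypoxia lists, with 8 genes or fewer each, did so too.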

How the results depend on the processing

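No paired analysis was possible because each group had 1 library, and the shared replicate number 1 in the labels pairs nothing. The share of Col2a1 Sox9 cells in Tbx1neo2/neo2 carrier was 38.6% at 1 UMI of each gene, 25.6% at 3, 19.1% after thinning, 32.1% with 3 of 8 mesenchymal genes, 32.0% in male-scored and 0% in female-scored cells. At 1 UMI of each it was 0.578% in Tbx1+/+ carrier and 0.695% in minoxidil, and in minoxidil 0% at 3 UMIs, after thinning or at a mitochondrial limit of 5%. Genes past 2-fold numbered 510 higher and 604 lower with at least 100 UMIs, and 2659 and 2822 with no limit on counts. The collagen median was 5.36 at the 5% mitochondrial limit. Over all alternatives it ranged from 3.97 to 5.36, and the cartilage matrix median from 3.18 (without cycling cells) to 4.39. The sign changed for Spp1 (0.69, male-scored cells), Sfrp5 (0.02) and Myog (-1.46) without cycling cells, Cdkn1a (-0.94, 3 of 8 genes) and Msln (-0.16, 3 UMIs of each) and the cause was not tested. TMM scaling shifted every ratio by -0.02. Of listed genes past 2-fold, 181 of 192 were still so in the same direction at the 5% mitochondrial limit. Without cycling cells 182 of 193 were, and in male-scored cells 185 of 197. Scrublet marked 0 cells in Tbx1neo2/neo2 carrier, so leaving out its calls gave no value there. The 5% of cells with the highest doublet scores, and sex scoring, were chosen after seeing the data. Depth limits rare transcripts such as Ihh and Col10a1, with 5 UMIs or fewer in either pool.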
